A study of Mus musculus with 8 samples.

Results

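The guanylate-binding proteins (GBPs) of the mouse were followed through corneas of the inbred strains BALB/cN and C57BL/6N. The 10 members, Gbp2, Gbp2b, Gbp3, Gbp4, Gbp5, Gbp6, Gbp7, Gbp8, Gbp9 and Gbp10, are 10 of the 54532 genes listed in the expression table, and 31314 of those genes were not at 0 in every cornea. The family was selected on its measured strain difference in these same corneas, so the strain differences of its members are given here as a description, with no p-value. Where a member is said to be called by the fit across all genes, that too is a description and supports nothing. Naive corneas, neither sutured nor treated, were used, 4 of BALB/cN and 4 of C57BL/6N mice, and strain is the only stated difference between the groups. All animals were male according to the study's methods, and their age is not given for this experiment. Total RNA was sequenced from strand-specific libraries to look for genes that are expressed differently in the parents of a cross. Each cornea is 1 library, and nothing in the labels says whether corneas of a strain came from separate animals, so p-values measure the spread between these libraries only.

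GBPs are large GTPases whose transcription is switched on by interferons, above all interferon-gamma. They gather on the membranes of intracellular bacteria and parasites and on the vacuoles around them, where they help to break the membrane open and to start inflammasome signalling. In the absence of infection most cells keep them at low levels. Interferon-gamma signals through a receptor and its JAK kinases to GAS motifs in promoters, and type I interferons form a complex that contains STAT2 and IRF9 and binds interferon-stimulated response elements (ISREs).

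The members lie in 2 clusters. Gbp5, Gbp7, Gbp3, Gbp2b and Gbp2 follow each other on the plus strand of chromosome 3 (GRCm38, chr3:142493978-142638008), and Gbp8, Gbp9, Gbp4, Gbp10 and Gbp6 on the minus strand of chromosome 5 (chr5:105014150-105293698). All 10 are annotated as protein-coding, and the coding sequence of the principal isoform of each holds the P-loop motif by which GTPases grip the nucleotide's phosphates. The predicted proteins are 525 to 638 residues long. A cysteine at the fourth place from the end, the start of the CaaX box that receives a lipid anchor, is present in Gbp2, Gbp2b and Gbp5 and in no other member. The members with this cysteine all belong to the chromosome 3 cluster.

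The 5 members on chromosome 3 have promoter entries in RefSeq (GRCm38.p6), each a window from 250 bases before to 50 bases after a start site, and these sequences are shown because they hold the motifs through which interferons act. Capitals mark the ISRE core (GAAA, 2 bases of any kind and GAAA again, here read on the other strand) and the GAS motif (TTCNNNGAA, which reads the same on both strands). Both strands were searched. In Gbp3, 2 overlapping copies of the core were found, and it has a further window, from another start site, with neither motif.
Gbp5, chr3:142496684-142496905, plus strand: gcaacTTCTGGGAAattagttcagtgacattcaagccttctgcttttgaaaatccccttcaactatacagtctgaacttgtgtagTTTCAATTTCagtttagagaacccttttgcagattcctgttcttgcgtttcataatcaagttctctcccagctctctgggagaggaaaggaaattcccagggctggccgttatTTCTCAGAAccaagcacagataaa
Gbp7, chr3:142530215-142530307, plus strand: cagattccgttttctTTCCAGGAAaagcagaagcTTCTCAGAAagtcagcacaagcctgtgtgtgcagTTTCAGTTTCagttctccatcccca
Gbp3, chr3:142559984-142560029, plus strand: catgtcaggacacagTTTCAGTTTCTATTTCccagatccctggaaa
Gbp2b, chr3:142594695-142594734, plus strand: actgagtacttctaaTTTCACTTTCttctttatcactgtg
Gbp2, chr3:142620589-142620628, plus strand: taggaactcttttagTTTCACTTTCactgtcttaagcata

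The ISRE core was found in each of the 5 genes, upstream of the RefSeq start site used, at positions -165 in Gbp5, -53 in Gbp7, -45 and -39 in Gbp3, -137 in Gbp2b and -59 in Gbp2. In the GENCODE annotation Gbp2, Gbp3 and Gbp5 begin further upstream. Of the bases shown, 27 of 40 for Gbp2, 4 of 46 for Gbp3 and 6 of 222 for Gbp5 lie in their exons. The whole stretch shown for Gbp5 lies inside the GENCODE span of that gene. Of all 32817 mouse promoter windows of this length in the same table, 1126 (3.43%) hold the ISRE core. GAS motifs were found in Gbp5 (positions -245 and -52) and in Gbp7 (positions -106 and -87), and in 8.29% of all windows. Both motifs together occur in 148 windows, or 0.451%. Gbp2 and Gbp2b carry the same 10 letters, TTTCACTTTC, yet are the members of this cluster with a small and with the largest difference between strains, as given next. The matches describe the reference genome, which was built from C57BL/6J, and strain variants in these windows were not examined. Promoters of Gbp4, Gbp6, Gbp8, Gbp9 and Gbp10 are not shown.

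Depth, recovered as described under the processing, was 36700000 to 41200000 reads per cornea in BALB/cN and 29700000 to 37000000 in C57BL/6N. The deposited values are regularized logarithms (rlog), a log2 scale on which weakly expressed genes are pulled towards their mean, so an rlog difference understates the change of a gene with few reads. All differences are BALB/cN minus C57BL/6N. Of the 25402 genes whose rlog values averaged 0 or more, 718 (2.83%) were called higher and 740 (2.91%) lower in BALB/cN by limma at a Benjamini-Hochberg adjusted p-value of at most 0.01. The corneas of a strain differed in their tissue content. Summed reads of the stromal keratocyte markers Kera, Lum, Dcn, Col1a1 and Ptgds, divided by size factors, ran from 65800 to 255000 in BALB/cN, lowest in replicate 2, and from 32400 to 344000 in C57BL/6N, lowest in replicates 3 and 4. The corneal epithelial markers Krt12, Krt5, Krt14, Pax6 and Aldh3a1 together were close in all libraries, at 1580000 to 1900000 and 1640000 to 1870000, and were abundant in each, in keeping with the labelled tissue.

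Expression of the family was higher in the BALB/cN cornea. Over the 10 members, 9516, 10760, 7468 and 9512 reads were counted in the 4 BALB/cN corneas and 1680, 1807, 1746 and 2164 in the 4 C57BL/6N corneas, so the strains did not overlap. After division by size factors the means were 8450 ± 1100 (SD, n = 4) and 2000 ± 288 reads (SD, n = 4), a ratio of 4.22. Even so the family took a small share of all reads, 0.0193% to 0.0261% in BALB/cN and 0.00469% to 0.00596% in C57BL/6N. In bulk tissue, more cells that express a gene and more RNA per cell cannot be told apart. Of the 10 members, 7 were called higher (Gbp2, Gbp2b, Gbp3, Gbp4, Gbp7, Gbp8 and Gbp9), against 2.83% of all genes, and none lower. Leaving out any 1 cornea left 4 to 6 called, always with Gbp2b, Gbp3, Gbp7 and Gbp9, while the calls of Gbp2, Gbp4 and Gbp8 were each lost in most of these fits. Of the members 9 were separated, with every BALB/cN value above every C57BL/6N value, against 8.75% of all genes. These counts use the values by which the family was chosen and are descriptive only. The median difference was 0.78 over the members and 0.01 over all genes.

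**Figure D1:**
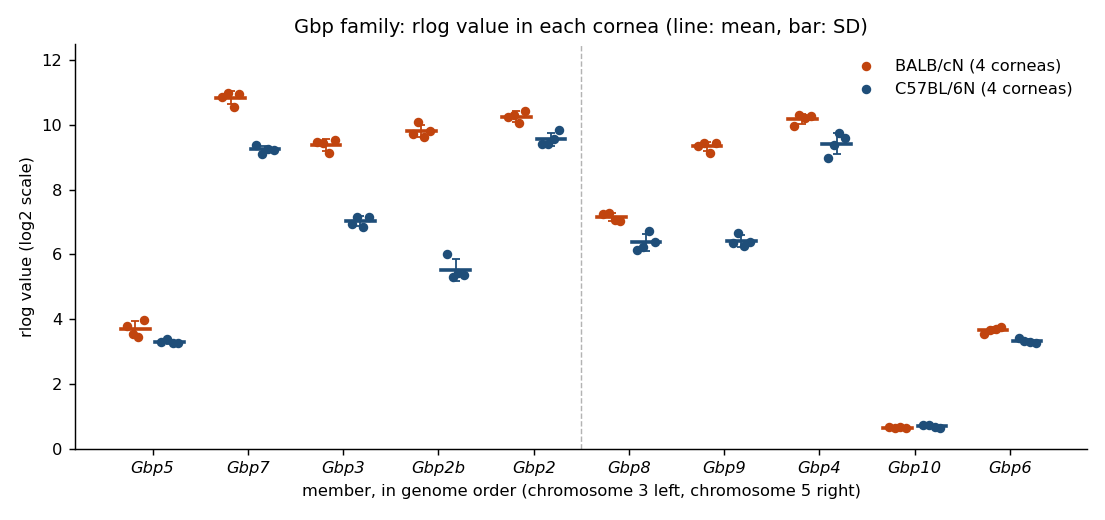
Deposited rlog values (log2 scale) of the 10 members in each cornea. Points are corneas, lines are strain means and bars are SDs over 4 corneas. The strains are apart for every member but Gbp10, most widely for Gbp2b (4.28) and Gbp9 (2.93).

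Gbp2b, the member formerly called Gbp1 and one of the lipid-anchored GBPs, had the largest difference. It gave 1570, 2085, 1323 and 1478 reads in the BALB/cN corneas and 25, 0, 0 and 1 in the C57BL/6N corneas. It was thus abundant in one strain and, in 3 of 4 corneas of the other, at or under 1 read. On the rlog scale it was 9.81 ± 0.19 against 5.53 ± 0.33 (SD, n = 4), a difference of 4.28 with a standard error of 0.164. The ratio of mean normalized reads was 220, with an exact 95% counting interval of 143 to 321. That ratio rests on the 25 reads of C57BL/6N replicate 1. Without this cornea a single read remained in C57BL/6N, and the ratio was 4140, with a counting interval of 720 to 158000. Among genes with at least 300 reads in every cornea of BALB/cN and at most 3 reads in at least 3 C57BL/6N corneas there were 2 others, Gm8623 and Hist1h2al, sought after the Gbp2b values had been seen. Both also had their highest C57BL/6N count in replicate 1, at 7 and 9 reads against at most 2 elsewhere in that strain. Whether reads from another library entered replicate 1 was not tested. Counting intervals cover counting error only, since PCR copies of 1 molecule are counted as separate reads.

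Gbp2, whose protein shares 76.2% of its residues with Gbp2b, differed far less. It gave 1537, 1609, 1172 and 1617 reads in BALB/cN and 577, 596, 539 and 852 in C57BL/6N. The strains did not overlap, and Gbp2 had the highest mean level per exon length in both. Its rlog value was 10.26 ± 0.16 against 9.56 ± 0.20 (SD, n = 4), a difference of 0.70 with a standard error of 0.112, and its normalized reads were 1.95-fold higher in BALB/cN.

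Gbp7 and Gbp3, which lack the CaaX cysteine, were intermediate. Gbp7 is linked to control of oxidative defence and of the parasite vacuole. It gave 2627, 2858, 1782 and 2566 reads in BALB/cN and 538, 420, 389 and 448 in C57BL/6N. The rlog difference of Gbp7 was 1.59 (standard error 0.104) and the ratio of normalized reads 4.61. Gbp3 gave 1141, 1094, 763 and 1093 reads in BALB/cN and 65, 91, 46 and 86 in C57BL/6N. Its rlog difference was 2.36 (standard error 0.113) and its ratio 12.1. For both genes the lowest BALB/cN cornea, replicate 3, was far above the highest C57BL/6N cornea.

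Gbp5, a lipid-anchored GBP known to promote NLRP3 inflammasome assembly, was scarcely expressed. It gave 34, 15, 10 and 49 reads in BALB/cN and 2, 5, 0 and 0 in C57BL/6N. The corneas of the strains did not overlap, but its rlog difference was 0.39 (standard error 0.111) and Gbp5 was not called. The ratio of normalized reads, 14.1, had a counting interval of 6.11 to 33.2, and the BALB/cN corneas varied widely among themselves (24.8 ± 17.4 normalized reads, SD, n = 4). On the log2 scale the ratio of Gbp5 moved from 3.82 to 5.19 without C57BL/6N replicate 2, which held 5 of the 7 reads of that strain.

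**Figure D2:**
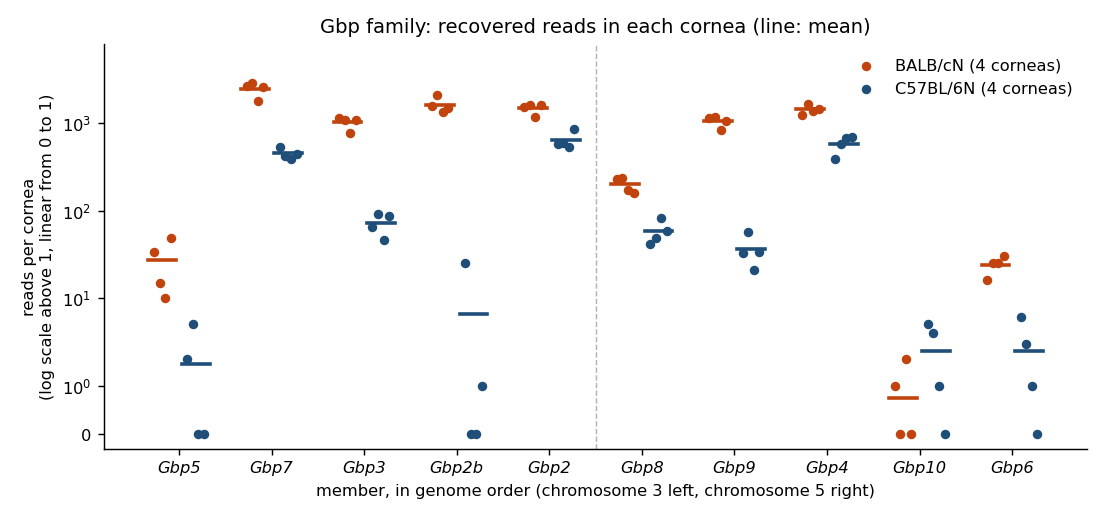
Recovered reads of each member in each cornea, on an axis that is logarithmic above 1 read and linear from 0 to 1. Points are corneas and lines are means. Gbp2b falls from 1323 or more reads to at most 25, whereas Gbp2, its neighbour and closest relative in this cluster, keeps at least 539 reads in every cornea.

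On chromosome 5, Gbp9 had the largest difference. It gave 1130, 1179, 835 and 1059 reads in BALB/cN and 33, 57, 21 and 34 in C57BL/6N. All BALB/cN corneas were far above all C57BL/6N corneas. The rlog value was 9.34 ± 0.14 against 6.41 ± 0.18 (SD, n = 4), a difference of 2.93 with a standard error of 0.109, and the ratio of normalized reads was 24.9.

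Its neighbour Gbp4 differed less and more variably. It gave 1233, 1657, 1384 and 1461 reads in BALB/cN and 388, 583, 666 and 684 in C57BL/6N. The rlog difference was 0.77 (standard error 0.151) and the ratio 2.05. Gbp8 gave 227, 238, 172 and 159 reads in BALB/cN and 41, 48, 83 and 59 in C57BL/6N. Its rlog difference was near-equal, 0.78 (standard error 0.133), at a lower level, where rlog shrinks more. The ratio of normalized reads was 2.79 for Gbp8 (counting interval 2.51 to 3.38), and the interval of Gbp4 was 1.99 to 2.19. These intervals leave out the spread between corneas and so cannot rank the 2 ratios. In C57BL/6N that spread was wide, 64.3 ± 28.4 normalized reads for Gbp8 and 636 ± 192 for Gbp4 (SD, n = 4). For Gbp4 and Gbp8 alike C57BL/6N replicate 1 was the lowest library.

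Gbp6 and Gbp10, whose predicted proteins are 97.7% identical, gave few reads. Most of their sequence recurs in other genes, so their separate counts are uncertain, as given below. Gbp6 gave 16, 25, 25 and 30 reads in BALB/cN and 6, 3, 1 and 0 in C57BL/6N. Its rlog difference of 0.33 (standard error 0.0662) was not called at the main settings but was under some alternatives, given at the end. Gbp10 gave 1, 0, 2 and 0 reads in BALB/cN and 5, 4, 1 and 0 in C57BL/6N. Gbp10 is the one member whose strains overlap, and a difference was not detectable from these few reads. The ratio of Gbp10 reads was 0.265 with a counting interval of 0.0448 to 0.983, and its log2 moved from -1.92 to -3.18 without BALB/cN replicate 3. That of Gbp6 moved from 3.09 to 3.96 without C57BL/6N replicate 1.

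Further genes of the family outside the 10 members gave few reads or none. Gbp11, annotated as a polymorphic pseudogene beside Gbp6, gave 12, 0, 5 and 6 reads in BALB/cN and none in the 4 C57BL/6N corneas, which allows up to 3 reads in each. Gm43302, which spans Gbp6 and Gbp10, and the pseudogene Gbp2-ps were at 0 in all 8 corneas. For Gm43302 a count of 0 does not show absence, since 81.6% of its exon bases lie in exons of Gbp6 and Gbp10.

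Reads were next divided by the length of exon that a member does not share with another gene, in kilobases, and by the reads of the library, as in RPKM values, so that members could be compared. That length takes in every annotated exon, used in the cornea or not, and was 2516 bases for Gbp2, 4977 for Gbp7 and 7433 for Gbp4. The order of the members depends on it. In BALB/cN, Gbp2 (15.1 ± 2.27), Gbp2b (14.5 ± 2.47) and Gbp7 (12.6 ± 2.27, SD, n = 4) came first. The spreads of these 3 overlap, but within each BALB/cN cornea Gbp7 was below both Gbp2 and Gbp2b. Gbp3 followed at 7.99 ± 1.37, then Gbp9 (5.24 ± 0.686) and Gbp4 (4.92 ± 0.604), again within their spread of each other. Gbp8 came next at 1.49 ± 0.227. Gbp6 (0.146 ± 0.0408), Gbp5 (0.106 ± 0.0744) and Gbp10 (0.00918 ± 0.0118) were lowest, and Gbp6 and Gbp5 overlap. The places of Gbp6 and Gbp10 are uncertain in both strains. Of their 100-base stretches, 64.5% and 73.5% recur in other genes, for which the division by length does not fully correct. In C57BL/6N the order changed. Gbp2 led at 7.34 ± 1.38, ahead of Gbp7 (2.60 ± 0.311) and Gbp4 (2.28 ± 0.662), which overlap. Gbp3 (0.627 ± 0.134) and Gbp8 (0.507 ± 0.221) overlap as well, and Gbp9 stood at 0.201 ± 0.0701. Gbp2b, second in BALB/cN, was at 0.0642 ± 0.122, in the range of Gbp10 (0.0338 ± 0.0310), Gbp6 (0.0167 ± 0.0172) and Gbp5 (0.00719 ± 0.00964). As shares of the family's reads, Gbp2b made up 15.5% to 19.4% in BALB/cN and at most 1.49% in C57BL/6N, and Gbp9 11.0% to 11.9% against 1.20% to 3.15%. Gbp2 and Gbp4 went the other way, Gbp2 with at most 17.0% in BALB/cN and 30.9% to 39.4% in C57BL/6N, and Gbp4 with 13.0% to 18.5% and 23.1% to 38.1%. Gbp7 held similar shares in both strains, 23.9% to 27.6% and 20.7% to 32.0%.

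Because the members are related by descent, stretches of exon that are identical to another gene over a full read of 100 bases were counted. Gbp2 and Gbp2b share no such stretch with each other or with any other gene, and their coding sequences are 83.2% identical. In C57BL/6N replicates 2 and 3, with 596 and 539 reads on Gbp2, no read was counted on Gbp2b. Summed, the pair was 4.02-fold higher in BALB/cN, a value that describes neither gene. Gbp3 shares 0.694% of its windows, with Gbp7, and Gbp7 shares 10%, nearly all of them with Gm43802, a gene that overlaps its exons. Gbp4, Gbp8 and Gbp9 share 1.64%, 4.39% and 1.65%. Gbp6 and Gbp10 are different: 64.5% and 73.5% of their windows recur, chiefly in each other and in Gm43302, and 29% and 46.3% of their exon bases lie in exons of Gm43302 on the same strand. Their separate counts are therefore uncertain, and those of Gm43302, with 98.8% shared windows, even more so. The sum of Gbp6 and Gbp10 was 17, 25, 27 and 30 reads in BALB/cN and 11, 7, 2 and 0 in C57BL/6N, a ratio of 4.38. Whether reads that match 2 genes equally well were dropped or assigned to one of them is not given in the sources used here.

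The genes on either side of the clusters were compared as well, since they lie in the same stretches of the genome and were not used to choose the family. On each side of a cluster the 3 protein-coding neighbours closest to it were taken among tested genes, 12 in all. None was called higher in BALB/cN (2.83% of all genes were), 2 were called lower (2.91% of all genes) and 10 were not called. With no adjustment, 1 was higher and 5 lower at p under 0.05, against 12% and 11.6% of all genes. Kyat3, a kynurenine aminotransferase that starts 63.0 kb after the chromosome 3 cluster, fell by 0.82 on the rlog scale in BALB/cN (standard error 0.115, adjusted p = 0.00154 by limma). Unc5c, a netrin receptor 659 kb before it, differed by -0.82 (adjusted p = 0.00588 by limma), a call lost without any 1 of 6 corneas, when Unc5c differed by -0.88 to -0.71. Pdlim5, nearest on the other side at 98.3 kb, differed by -0.14, Gtf2b by -0.04 and Pkn2 by 0.05. Around the chromosome 5 cluster, Zfp951 (0.40), a zinc finger gene, and Lrrc8b (-0.27), Lrrc8c (0.06) and Lrrc8d (-0.30), subunits of volume-regulated anion channels, were not called. Both flanking calls were lost with the replicate block, at -0.82 each, and in the 5 corneas richest in stromal markers, at -0.64 for Unc5c and -0.69 for Kyat3. In those 5 corneas Lrrc8d gained a call (-0.49, adjusted p = 0.00627 by limma).

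**Figure D3:**
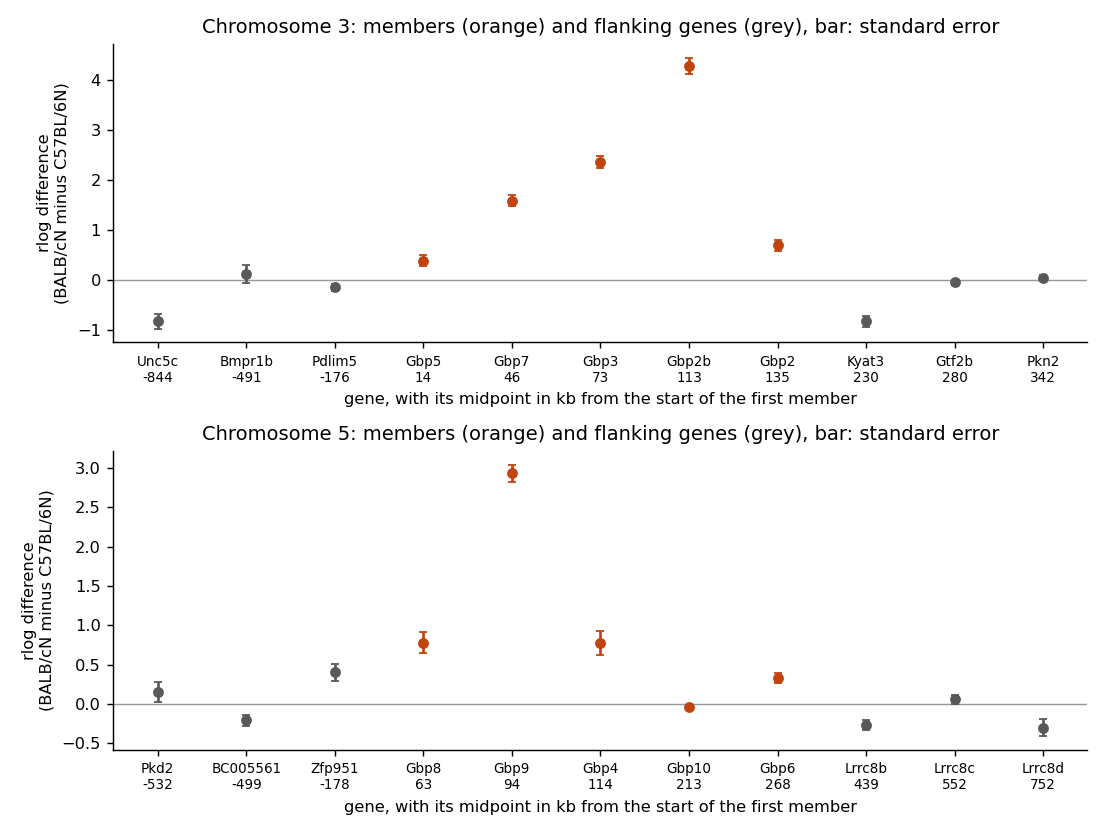
Differences in rlog value (BALB/cN minus C57BL/6N) of the members in orange and of the flanking genes in grey, in genome order, with each gene's midpoint in kb from the start of the first member. Bars are standard errors of the limma fit on 8 corneas. Of the genes drawn, only members differ by more than 0.5 in favour of BALB/cN, and neighbours within a cluster differ by as much as Gbp2b (4.28) and Gbp2 (0.70).

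A list of 54 genes that act with GBPs or upstream of them was then read, ordered by role. Of 47 that could be tested, 6 were called higher in BALB/cN (2.83% of all genes were) and 2 lower (2.91% of all genes were), with a median difference of 0.07 beside 0.01 over all genes. None of the tested ligands, receptors or kinases was called. Ifng, the chief inducer of GBPs, and Ifnb1, Ifnl2 and Ifnl3 were at 0 in all 8 corneas, so none of these 4 interferon transcripts was detectable at this depth. The interferon-gamma receptor chains Ifngr1 (-0.20, adjusted p = 0.0405 by limma) and Ifngr2 (-0.15, adjusted p = 0.311 by limma) were not called. With no adjustment, 12 of the 47 (25.5%) were higher and 10 (21.3%) lower at p under 0.05, against 12% and 11.6% of all genes.

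Of 8 transcription factors, 3 were higher in BALB/cN. Irf9, the DNA-binding part of the type I interferon complex, had rlog values of 11.46, 11.75, 11.31 and 11.63 in BALB/cN and 9.93, 10, 9.96 and 9.89 in C57BL/6N. Its strains were far apart, and it rose by 1.59 (standard error 0.0891, adjusted p = 4.25e-06 by limma). Stat2, its partner in that complex, rose by 1.16 (adjusted p = 1.33e-04 by limma). Nlrc5, the transactivator of MHC class I genes, rose by 1.08 (adjusted p = 3.03e-04 by limma). Irf1, a factor needed for full induction of GBPs by interferon-gamma, was among the 5 not called: it differed by -0.09 (adjusted p = 0.597 by limma) at 7770 ± 668 against 8520 ± 1480 normalized reads (SD, n = 4).

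Of 5 inhibitors of interferon signalling, 2 were higher. Usp18, which removes ISG15 from proteins and blocks the type I interferon receptor, had rlog values of 10.10, 10.34, 9.55 and 10.45 in BALB/cN and 7.38, 6.95, 6.59 and 6.68 in C57BL/6N. It had the largest difference of the list, 3.21 (standard error 0.220, adjusted p = 1.55e-05 by limma). Socs1, an inhibitor of the JAK kinases, rose by 0.66 (adjusted p = 0.00637 by limma), a call lost without any 1 of 7 corneas, when Socs1 differed by 0.57 to 0.71.

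No gene of the 5 that attach or trim lipid anchors and none of the 10 of the ubiquitin-like machinery that brings GBPs to vacuoles was called. Among 7 tested inflammasome and lytic partners, Pycard, the adaptor ASC, was lower in BALB/cN (-0.90, adjusted p = 3.82e-05 by limma) and the other 6 were not called. Trim21, an antibody receptor and ubiquitin ligase, was higher (0.89, adjusted p = 3.87e-04 by limma), and Lgals3, a galectin that marks broken vacuoles, was lower (-0.44, adjusted p = 0.00172 by limma). When p-values were recalibrated to an empirical null, in which the middle of all test statistics sets the spread expected by chance, no gene of any list was called. In the 5 corneas richest in stromal markers, the calls of Irf9, Usp18, Trim21 and Pycard stood, and those of Stat2, Nlrc5, Socs1 and Lgals3 were lost, with differences of 1.11, 1.01, 0.48 and -0.40.

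**Figure D4:**
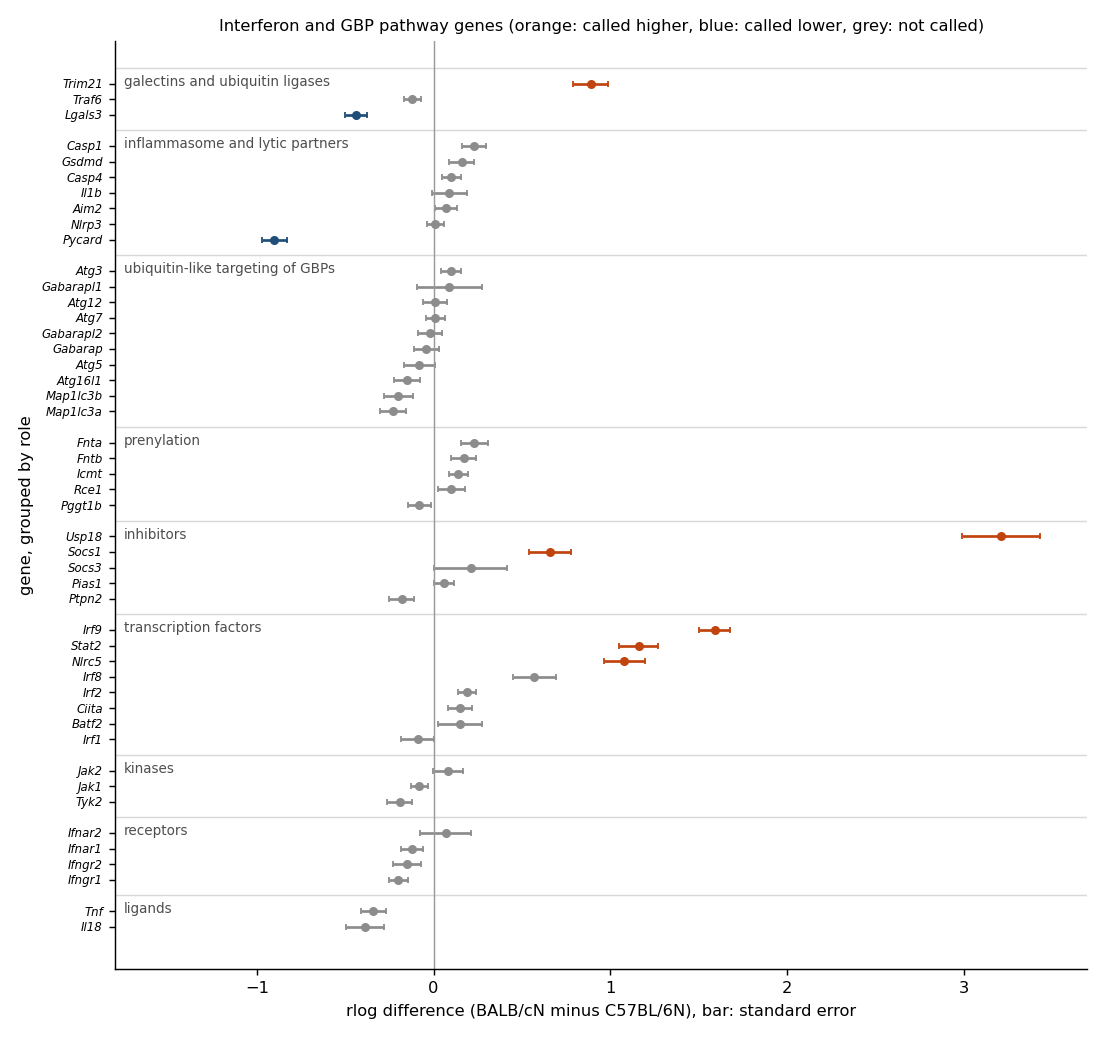
Differences in rlog value (BALB/cN minus C57BL/6N) of 47 pathway genes, grouped by role. Points are estimates and bars are standard errors of the limma fit on 8 corneas. Orange genes were called higher, blue genes lower and grey genes were not called; the called genes lie among transcription factors, inhibitors, inflammasome partners, and galectins and ubiquitin ligases.

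Members were also compared with each other inside a strain, after subtraction of the strain mean. BALB/cN replicate 3 had the lowest BALB/cN value for 6 members, Gbp2, Gbp2b, Gbp3, Gbp5, Gbp7 and Gbp9, with deviations of -0.30 to -0.17. Its Usp18 and Irf9 values were the lowest of that strain as well. Gbp4 and Gbp8 did not follow: their widest deviations were in C57BL/6N, where replicate 1 was low (-0.43 and -0.22) and replicate 3 high (0.32 and 0.36). Pearson's r of the deviations over 8 corneas had a median of 0.44 over the 10 pairs within chromosome 3, -0.10 over the 10 pairs within chromosome 5 and -0.06 over the 25 pairs between them. Single pairs did not keep to the clusters, since r was 0.83 for Gbp3 and Gbp9, 0.67 for Gbp4 and Gbp8 and -0.13 for Gbp2 and Gbp2b. These correlations are descriptions, as the points of a gene pair share libraries and depth.

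**Figure D5:**
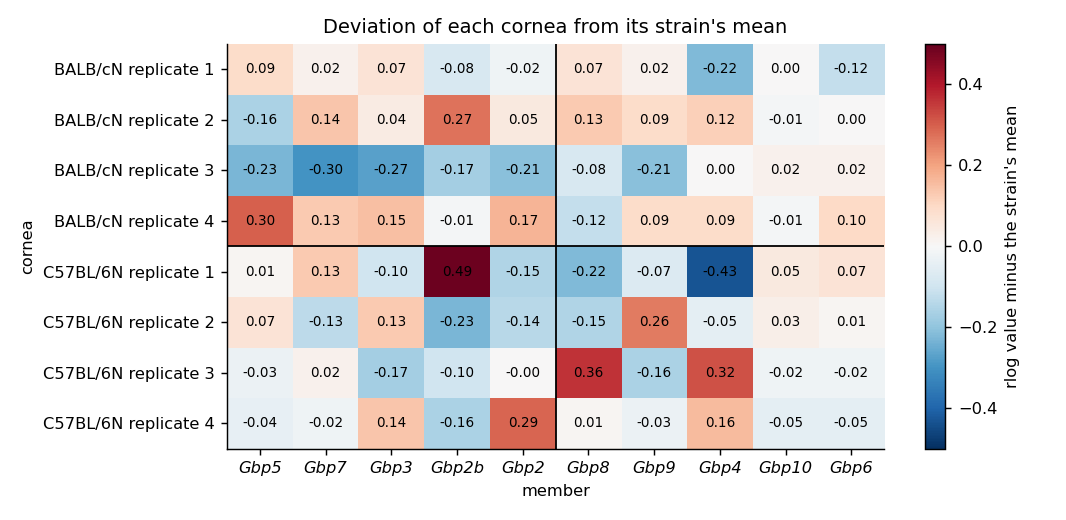
Deviation of each cornea's rlog value from its strain's mean, by member (columns, chromosome 3 left of the line) and cornea (rows, BALB/cN above the line). BALB/cN replicate 3 is below its strain's mean for all 5 chromosome 3 members, by 0.17 to 0.30; the highest value is Gbp2b in C57BL/6N replicate 1, at 0.49.

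Of 18753 genes outside the family that averaged log2(10) or more on the rlog scale, those whose deviations were most like the mean deviation of the members were Phf11a (r = 0.99), Ptcd1 (0.99), Ccn5 (0.98), Parp12 (0.97) and Ifih1 (0.97), over 8 corneas. These are the top of a long ranking over few corneas, and how often such r values arise by chance was not tested. Ptcd1, for one, had a strain difference of 0.00. Stat2 (0.89) and Irf9 (0.85) ranked 49 and 106. Other genes of the pathway followed the members less: Nlrc5 (0.67) ranked 570, Usp18 (0.59) 1044, Irf1 (0.29) 4646 and Socs1 (-0.40) 16392.

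Markers of other cells that a cornea can hold were read beside the family. Of 36 tested markers none was called by limma, while 5 (13.9%) were higher and none lower at an unadjusted p under 0.05, against 12% and 11.6% of all genes. These 5 were not spread over the lists. They were the macrophage markers Lyz2 (rlog difference 0.67), Cx3cr1 (0.59) and Cd68 (0.21), the dendritic cell marker Itgax (0.21) and Pecam1 (0.48) of blood endothelium. The macrophage list (Adgre1, Csf1r, Cd68, Lyz2, Mrc1, Cx3cr1, C1qa and C1qb) summed to 1750 to 2740 normalized reads in BALB/cN and 1310 to 2230 in C57BL/6N, which overlap. Cd68 was the largest part of these sums, with means of 1320 in BALB/cN and 1090 in C57BL/6N. Every marker of this list had an rlog difference above 0, from 0.04 for Adgre1 to 0.67 for Lyz2, with a median of 0.27. Dendritic cell markers summed to 35.8 to 70.7 and 15.9 to 96.8. T and NK cell markers, whose cells are the usual source of interferon-gamma, summed to 4.29 to 23.3 and 22.0 to 67.0, and 5 of 10, Cd3d, Cd8a, Ncr1, Nkg7 and Gzmb, were at 0 in all corneas. Blood endothelium markers summed to 516 to 1890 and 188 to 1650. Most of these sums was Kdr, with means of 1040 in BALB/cN and 833 in C57BL/6N. Means of the others on that list were further apart: Cdh5 162 and 19.6, Pecam1 55.7 and 15.1, Tek 49.7 and 6.84, and Emcn 27.0 and 3.04. Each of these was highest in BALB/cN replicates 1 and 4. Lens markers summed to 16.9 to 7020 and 15.9 to 319, and pigment cell markers to 199 to 31200 and 558 to 2640, both highest in BALB/cN replicates 1 and 4. The part of these cells in the Gbp differences was not tested. The 5 corneas richest in stromal markers (without BALB/cN replicate 2 and C57BL/6N replicates 3 and 4) were picked after seeing the data. In them the stromal genes Kera, Dcn and Col1a1 were called lower in BALB/cN by limma, with differences of -0.47 to -0.41. The same 7 members were called as in all 8, beside 411 genes higher and 441 lower in all. Gbp2b differed by 4.06, Gbp9 by 2.80, Gbp3 by 2.33 and Gbp7 by 1.55. These member calls use the values by which the family was chosen and are descriptive only.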

How the data were processed

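RNA of 8 corneas was read from both ends, 100 bases each. The authors removed ribosomal and transfer RNA reads, aligned with TopHat2 2.1.1 to pseudo-genomes of each strain built on GRCm38, and counted reads on the exons of each gene with HTSeq 0.7.1. They deposited log2-scale values, the regularized logarithm (rlog) of DESeq2 1.30, which is normalized for library size. All 8 columns were mapped to corneas by their labels.

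The strain contrast was fitted in limma 3.58.1 (R 4.3.3; variance trend, mean rlog of at least 0, Benjamini-Hochberg adjustment, adjusted p of at most 0.01). Read counts were solved for from the rlog formula, with constants started from mean counts of 1759 genes in a supplementary table and set on 1000 of them. For genes outside that table, 93.9% of values at means of 100 to 1000 reads, 70.5% at 1000 to 5000 and 24.6% above 5000 lay within 0.1 of a whole number, so counts of highly expressed genes are estimates. Normalized reads are reads over size factors. Exons and coding sequences came from GENCODE for GRCm38, and proteins were aligned with biopython 1.88. In the pathway list the symbol Irgb10 was unmatched, and 1 gene is not reported here. Python 3.11.15, numpy 2.4.6, pandas 2.3.3, scipy 1.17.1 and matplotlib 3.10.9 were used.

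The members, lists and tests were chosen with earlier results of these data known. Named were all members, the flanking genes, called pathway genes (up to 12) with Ifng, Ifngr1, Ifngr2 and Irf1, and the 5 genes most alike within strains. Alternatives were other variance models, filters, scalings and thresholds, an empirical null, a replicate block and leaving out each cornea. The 5 corneas richest in stromal markers, and the sums of Gbp2 with Gbp2b and of Gbp6 with Gbp10, were added after seeing the data. Correlations of same-numbered corneas between strains (0.31, -0.53, -0.20 and -0.45) did not pair the samples.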

Additional observations from a re-analysis of the deposited data

Results flagged for a closer look

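Among 66 groups of 4 corneas examined, 1 held a library far from the others, where chance alone gives about 3.30: BC005561, a gene before the chromosome 5 cluster, was at 9.60 in BALB/cN replicate 4, next to 9.49. No member of the family was singled out in this way, although Gbp2b in C57BL/6N replicate 1 came close.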

How the results depend on the processing

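Gbp2b, Gbp3, Gbp7 and Gbp9 were called under every alternative tried except the empirical null (standard deviation 1.68), and no rlog difference of a member reversed in sign under another scaling; the median over all genes moved from 0.01 to -0.07 with median centring. Under the empirical null 0 members, 0 pathway genes, 0 flanking genes and 0 genes in all were called, whereas 8 members, 9 pathway genes, 2 flanking genes and 839 higher and 851 lower genes in all had an unadjusted p under 0.05; the cause was not tested. Median centring called 4 members higher, 1 pathway gene lower, and 413 genes higher in all. The numbers of the labels do not pair the corneas. With the replicate block 5 members were called, 1 pathway gene was lower, 0 flanking genes were called, and 274 genes were higher and 280 lower in all. No variance trend left 1 flanking gene called. Gbp6 was called and Gbp4 was not, both with no variance trend and with a robust variance fit. With the filter raised to a mean rlog of log2(10), Gbp6 was called beside the members of the main fit. An adjusted p of 0.05 called 5 pathway genes lower, 1 flanking gene higher, and 1413 genes higher and 1429 lower in all. In the 5 corneas richest in stromal markers, 3 pathway genes were higher and 1 lower, 1 flanking gene and 3 markers were lower, and 411 genes were higher and 441 lower in all. Leaving out each cornea in turn gave 4 to 6 members, 1 to 2 flanking genes lower, and 484 to 561 higher and 467 to 607 lower genes in all; Gbp2, Gbp4 and Gbp8 were the calls that came and went. Summing Gbp10 with the other chromosome 5 members turned its log2 ratio from -1.92 to 1.73, and summing it with Gbp6 alone to 2.13; in both sums nearly all reads are of the other members. Without C57BL/6N replicate 1 the log2 ratio of Gbp2b rose from 7.78 to 12.02, without C57BL/6N replicate 2 that of Gbp5 from 3.82 to 5.19, and without BALB/cN replicate 3 that of Gbp10 fell from -1.92 to -3.18. Few reads limit Gbp5, Gbp6, Gbp10 and the ratio of Gbp2b. For Gbp6 and Gbp10 the sequence shared with other genes is a further limit, which greater depth need not remove.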
